A study of Mus musculus with 9 samples.

Results

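Nuclear receptors are transcription factors that bind small lipophilic ligands, such as steroids, retinoids, vitamin D, oxysterols and fatty acids, or that act as orphans without a settled ligand. The superfamily was followed here by 46 gene symbols, and the probe annotated with exactly 1 of these symbols, or the brightest such probe, stood for each gene. Of the 46, 44 were measured among 22180 genes in all. Nr1h2 and Nr2e3 were not analysed here.

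Dendritic cells (DCs) were sorted as CD11c+ MHC class II+ cells from the spleens of naive mice with C57BL/6 background, and total RNA was read on 1 array per sample. The 3 knockout samples (C/EBPbeta-/-) came from CD11c.Cre x C/EBPβflox/flox mice, in which the CD11c promoter drives a Cre recombinase that deletes the loxP-flanked gene for the transcription factor C/EBPβ. The 6 control samples (C/EBPbeta+/+) carry intact alleles. The protocols name both C57BL/6 and CD11c.Cre mice as sources, and the design text names CD11c-Cre-eGFP mice as the controls, so not every control is known to carry the Cre transgene that the knockouts carry. The CD11c promoter is also active in some macrophages and monocytes. Age is not in the labels, and nor is whether each replicate was another mouse. Every p-value below therefore reflects variation among these arrays alone, part of which may be technical. The study asked what C/EBPβ does in DC maturation and fate in the resting animal.

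Most receptors of the family act in the nucleus as homodimers or as partners of the retinoid X receptors, and without ligand many of them hold corepressors at their target genes. In DCs and macrophages the family is known for sensing lipids and hormones. PPARγ and the liver X receptors control lipid handling, the vitamin D and retinoic acid receptors shape DC maturation, and the glucocorticoid receptor represses inflammatory genes. The NR4A receptors are immediate early genes, induced rapidly by many stimuli, and the REV-ERB and ROR receptors belong to the circadian clock.

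Values are log2 intensities, in which 1 unit is a factor of 2 in signal. Array medians ranged from 5.49 to 5.56. The deleted gene Cebpb read 5.37, 5.60 and 5.42 in the 3 knockouts and 6.64 to 7.15 in controls, a log2 change of -1.35 (limma's adjusted p = 0.00074). DC genes were high in both groups. Itgax, which encodes CD11c, averaged 12.15 in knockout and 12.16 in control samples, and the class II gene H2-Ab1 averaged 13.72 in knockout and 13.68 in control samples. Red pulp macrophage and plasma cell markers had positive changes and B cell markers stood high in 1 knockout sample, and their values are given beside the results they touch.

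Nuclear receptors had array signal in control DCs about as often as genes in general. As the files carry no detection call, signal was set against 1429 genes for olfactory, vomeronasal and taste receptors, which DCs are not known to make. The 95th percentile of their control means, 5.497, is called the chemosensory level. Of the 44 receptors, 27 had a control mean above it (61.4%), against 57.7% of all genes. Above the 99th percentile, 6.43, there were 17 of the 44 receptors, a lower share than the 43.0% of all genes. Probes differ in how well they bind, so these values place a probe against background and do not rank receptors by abundance. In bulk samples, fewer cells of a type and less RNA per cell cannot be told apart.

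**Figure D1:**
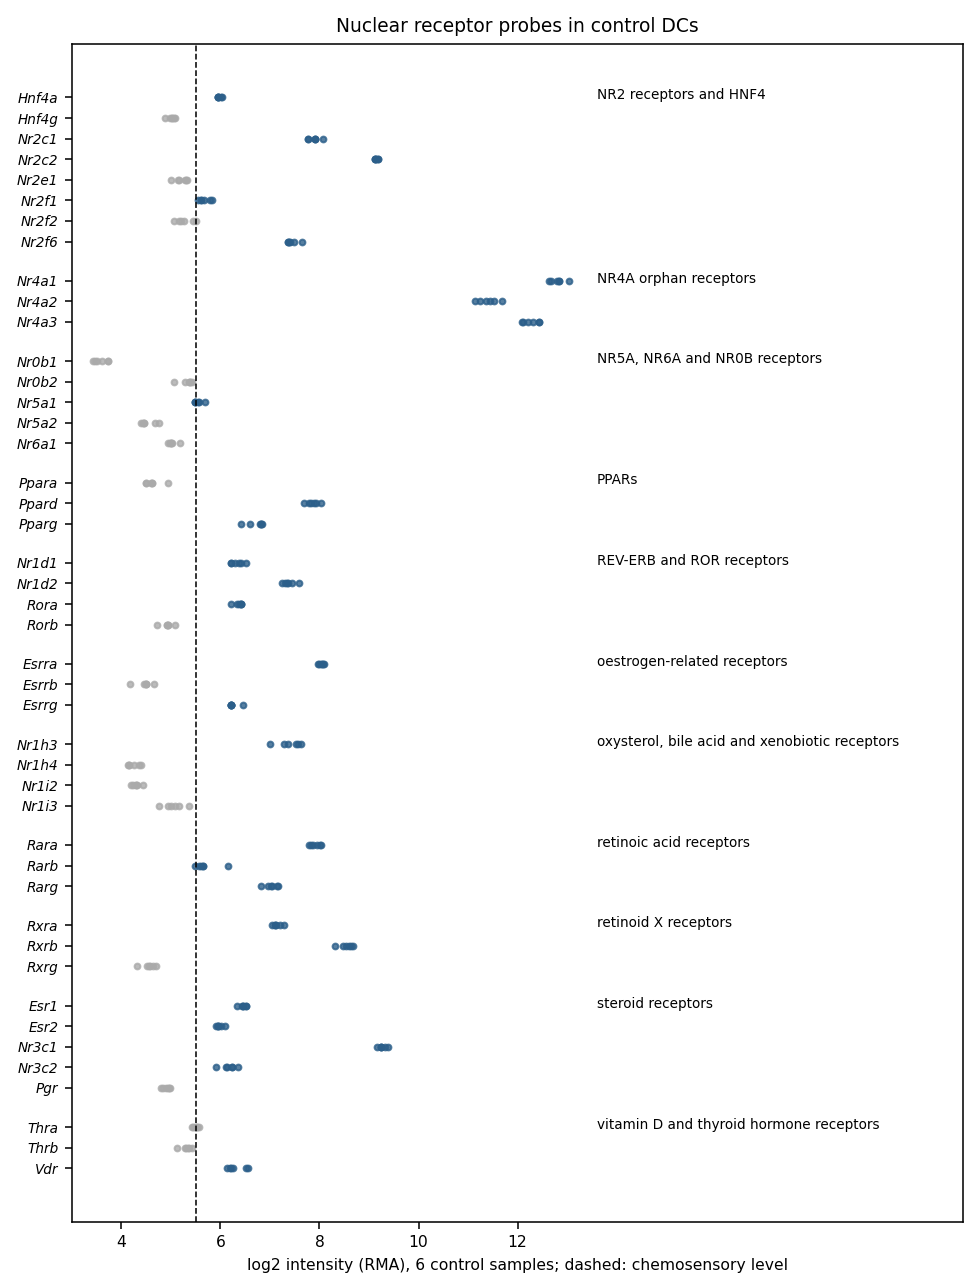
Log2 intensity of the 44 measured receptors in the 6 control samples (x axis, 1 point per sample), grouped by receptor class and listed by name within it. Blue marks the 27 receptors with a control mean above the chemosensory level of 5.497 (dashed line) and grey the other 17, and the 3 NR4A receptors lie above 11 in every control.

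All 3 NR4A receptors lay far above that level. Control means were 12.80 ± 0.14 for Nr4a1, 11.40 ± 0.20 for Nr4a2 and 12.26 ± 0.16 for Nr4a3 (SD, n = 6 each). Among steroid receptors, 4 of 5 were above the level. Nr3c1, the glucocorticoid receptor, had 9.27 ± 0.07, while the mineralocorticoid receptor Nr3c2 had 6.16 ± 0.15 and the oestrogen receptors Esr1 and Esr2 had 6.45 ± 0.06 and 5.98 ± 0.07 (SD, n = 6 each). A second Nr3c2 probe had a control mean of 3.44, below the level. The progesterone receptor Pgr was not above the level.

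The common dimer partners lay above the level as Rxra (7.14 ± 0.09) and Rxrb (8.54 ± 0.13), while Rxrg was not above the level. All 3 retinoic acid receptors passed, with Rara at 7.91 ± 0.10, Rarg at 7.03 ± 0.12 and Rarb at 5.68 ± 0.24 (SD, n = 6 each). Rarb had the largest SD among the 27, which rested on control replicate 5 at 6.16 against 5.49 to 5.65 in the other 5 controls. Of the lipid and vitamin sensors, Ppard had 7.86 ± 0.12, Pparg 6.72 ± 0.18, Nr1h3 (liver X receptor α) 7.40 ± 0.23 and Vdr (vitamin D receptor) 6.31 ± 0.18. The Vdr mean lay above the chemosensory level but below the 99th percentile of 6.43. Ppara, the thyroid hormone receptors Thra and Thrb, the bile acid receptor Nr1h4 and the xenobiotic receptors Nr1i2 and Nr1i3 were not above the level.

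Of the clock receptors, Nr1d1 and Nr1d2, which encode REV-ERBα and REV-ERBβ and repress transcription, had 6.34 ± 0.12 and 7.38 ± 0.12, and the activator Rora had 6.37 ± 0.08, while Rorb was not above the level. Esrra, an orphan receptor that controls genes of mitochondrial respiration, had 8.03 ± 0.05, and Esrrg had 6.26 ± 0.10. The testicular orphan receptors Nr2c1 and Nr2c2 had 7.89 ± 0.11 and 9.14 ± 0.03, and Nr2f6, a repressor of cytokine genes in T cells, had 7.45 ± 0.11 (SD, n = 6 each). Hnf4a, a liver receptor, had 5.97.

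The receptors nearest the level were Nr5a1 (5.54) and Nr2f1 (5.67) just above it and Thra (5.49) and Nr0b2 (5.32) just below it. Nr5a1 encodes steroidogenic factor 1, known from adrenals and gonads. The 17 receptors not above the level had control means from 3.58 to 5.49. They include Esrrb, Hnf4g, Nr2e1, Nr2f2, Nr0b1, Nr5a2 and Nr6a1, which act mainly in stem cells, gut, nervous system, vessels or gonads.

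In the knockouts 2 receptors rose, Pparg and Vdr, and none fell by the test. Of the 44 receptors, 2 passed an adjusted p of 0.05 (4.55%), both higher, against 0.906% of all genes and 0.415% for higher genes alone. In 7 receptors (15.9%) the knockout values all lay on one side of the controls without overlap, against 7.39% of all genes. These were Pparg, Vdr, Nr1h3, Nr4a3 and Rora above every control (2.52% of all genes) and Nr5a1 and Nr2c2 below every control (4.88% of all genes). With each array centred on its median, Rora, Nr5a1 and Nr2c2 overlapped the controls. The 44 receptors had 23 positive and 21 negative changes, with a median change of 0.016, against -0.014 over all genes. At an unadjusted p under 0.05 there were 9 receptors (20.5%), against 14.3% of all genes.

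**Figure D2:**
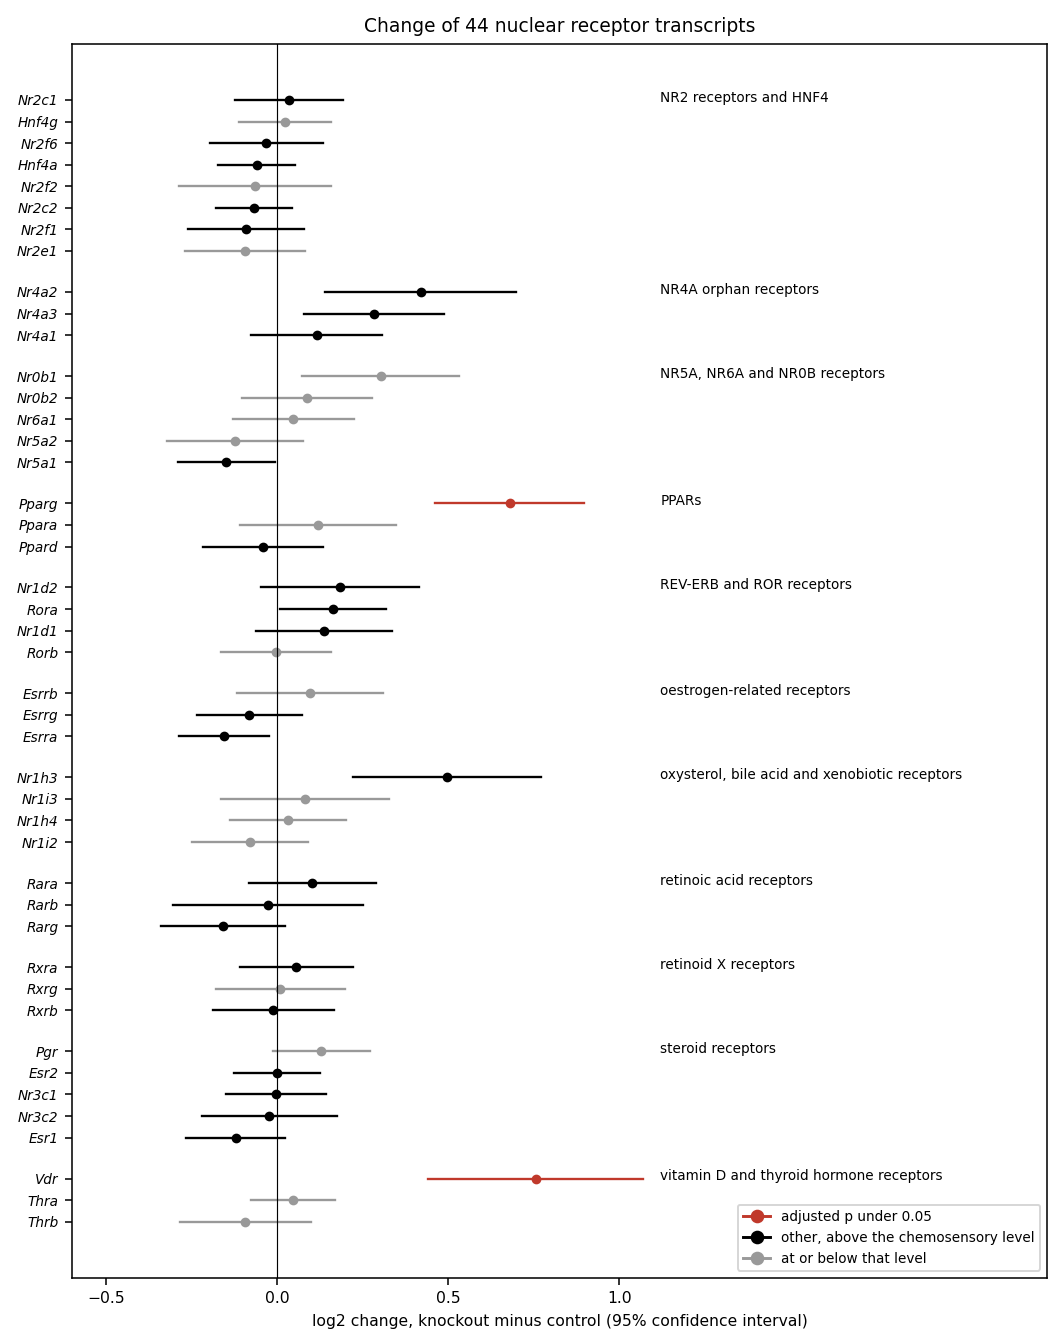
Log2 change of each of the 44 receptors, knockout minus control (x axis, point), with limma's 95% confidence interval (line), grouped by receptor class. Pparg (0.68) and Vdr (0.76), in red, passed an adjusted p of 0.05, and the intervals of Nr1h3 and Nr4a2 are the others that reach past a change of 0.58, or 1.5-fold.

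Pparg encodes PPARγ, a receptor for fatty acids and their derivatives that drives lipid uptake and storage genes. Its log2 intensity was 7.36, 7.46 and 7.37 in knockout replicates 1 to 3, against 6.82, 6.84, 6.41, 6.80, 6.83 and 6.60 in control replicates 1 to 6. Every knockout value lay above every control, and control replicate 3 was the lowest. The means were 7.40 ± 0.05 in knockout (SD, n = 3) and 6.72 ± 0.18 in control samples (SD, n = 6). The change was 0.68 (SE 0.10), or 1.60-fold (95% confidence interval 1.38 to 1.86), with limma's adjusted p = 0.016. Without knockout replicate 2 it was 0.65 with adjusted p = 0.084. Without any other single sample the adjusted p stayed under the threshold, and over all 9 such fits the change ranged from 0.62 to 0.70.

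Vdr encodes the vitamin D receptor, which binds the active hormone as a dimer with a retinoid X receptor and favours a tolerogenic state in DCs. It had 7.45, 6.90 and 6.84 in knockout replicates 1 to 3, against 6.51, 6.13, 6.55, 6.18, 6.22 and 6.26 in control replicates 1 to 6. The groups did not overlap, and knockout replicate 1 stood above the other knockouts. The means were 7.06 ± 0.34 in knockout (SD, n = 3) and 6.31 ± 0.18 in control samples (SD, n = 6). The change was 0.76 (SE 0.14), or 1.69-fold (95% confidence interval 1.36 to 2.10), with limma's adjusted p = 0.045. This call was the less firm of the pair. It held without knockout replicate 3 (0.87, adjusted p = 0.045) and was lost without any 1 of the other 8 samples, with changes of 0.56 to 0.84 and adjusted p from 0.056 to 0.11. The lowest change, 0.56, was that without knockout replicate 1.

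The 2 receptors that passed are shown by promoter windows, since the factor removed in the knockouts binds DNA at the motif TTGCGCAA and at variants of it. RefSeq (GRCm38.p6) gave 63 windows of 300 bases, from 250 before to 50 after a start, for 42 of the 46 symbols. The full motif TTGCGCAA lay in 0 of these windows and in 0.183% of all 32851 windows. The relaxed form TTGCNNAA, searched on both strands and including every full motif, lay in 12 of the 63 (19%), against 10.8% of all windows. Pparg has 3 windows. The one at chr6:115421816-115422115 (+ strand) holds the relaxed form at bases 36 to 43 and, on the opposite strand, at bases 235 to 242, given in capitals. The others, at chr6:115360894-115361193 and chr6:115362099-115362398, hold none of the motifs searched. Which of these starts the sorted cells use was not tested. The Vdr window at chr15:97908247-97908546 (- strand) holds none of the motifs searched. A match is a run of letters and not a measured binding site.
Pparg: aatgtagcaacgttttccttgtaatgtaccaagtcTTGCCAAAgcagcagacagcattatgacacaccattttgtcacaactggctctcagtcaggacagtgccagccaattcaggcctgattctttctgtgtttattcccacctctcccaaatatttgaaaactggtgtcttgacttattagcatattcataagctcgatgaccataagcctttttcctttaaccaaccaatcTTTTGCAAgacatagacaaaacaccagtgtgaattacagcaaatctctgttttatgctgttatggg
Vdr: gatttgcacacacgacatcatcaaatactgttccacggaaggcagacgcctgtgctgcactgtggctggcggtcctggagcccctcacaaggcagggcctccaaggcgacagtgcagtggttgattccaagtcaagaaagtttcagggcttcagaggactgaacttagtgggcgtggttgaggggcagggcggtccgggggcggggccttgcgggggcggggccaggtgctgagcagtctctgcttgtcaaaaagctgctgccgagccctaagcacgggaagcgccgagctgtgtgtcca

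The relaxed form also lay in windows of Esr1, Esrrg, Nr1d1, Nr2f1, Nr3c2, Nr5a2, Nr6a1, Rarb, Rarg, Rorb and Rxrg, none of which passed the test. The E-box CACGTG, bound by clock factors, lay in windows of 5 of the 42 receptors (Esr2, Nr0b2, Nr1i3, Rara and Thrb), against 8.09% of all genes with a window. The cAMP response element TGACGTCA lay in windows of Nr2e1 and Nr6a1, against 2.03% of all genes.

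Nr1h3 encodes liver X receptor α, an oxysterol receptor that controls cholesterol efflux and is known for its part in the macrophages of the mouse spleen. It had 7.82, 7.88 and 7.98 in knockout replicates 1 to 3, against 7.37, 7.63, 6.996, 7.52, 7.57 and 7.29 in control replicates 1 to 6. All knockout values lay above every control, and control replicate 3 was the lowest. The change of 0.50 (SE 0.12) did not pass, with limma's adjusted p = 0.094, and its 95% interval was 0.22 to 0.77.

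**Figure D3:**
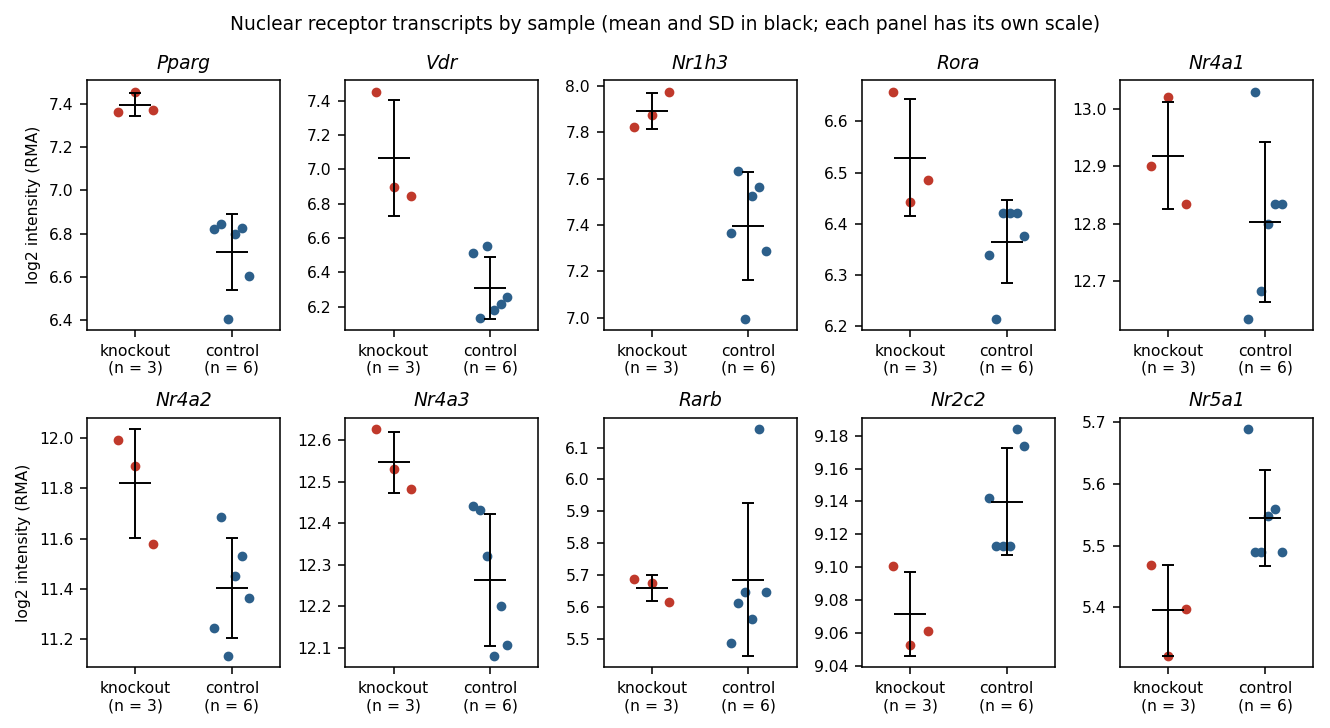
Log2 intensity (y axis, own scale in each panel) of 10 receptors in the 3 knockout and 6 control samples, with 1 point per sample and the mean and SD in black. Pparg, Vdr, Nr1h3, Rora and Nr4a3 show knockout points above every control, Nr2c2 and Nr5a1 below every control, and Nr4a1, Nr4a2 and Rarb overlap.

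Markers of red pulp macrophages, spleen cells that recycle iron and also express Pparg and Nr1h3, had higher means in the knockouts. All 12 measured markers had a positive change, with a median of 0.60, and 0 of 12 passed the test. Above every control lay 3 of 12 (Vcam1, Cd163 and Axl), against 2.52% of all genes. The mean of the 12 lay 0.23, 0.76 and 0.68 above the control mean in knockout replicates 1 to 3. In control replicates 1 to 6 it was 0.16, 0.58, -0.58, -0.05, 0.08 and -0.19, so the groups overlapped. Its level ranged from 8.80 to 9.33 in knockout and from 7.996 to 9.15 in control samples, and no marker was at or below the chemosensory level. The defining marker Spic changed by 0.71 (adjusted p = 0.11) and Cd5l by 0.036 (adjusted p = 0.98).

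Control replicate 3, the lowest for these markers, was also the lowest control for Pparg and Nr1h3, and control replicate 2, the highest for them, was the highest control for both receptors. Knockout replicate 1 had a lower marker mean than control replicate 2 but higher Pparg (7.36, against 6.84 in that control) and higher Nr1h3 (7.82, against 7.63). For Vdr the order in the controls ran the other way, with replicate 2 the lowest (6.13) and replicate 3 the highest (6.55). With the marker mean as a covariate, an alternative chosen after seeing the data, the change was 0.49 for Pparg (adjusted p = 0.19), 0.24 for Nr1h3 (adjusted p = 0.69) and 0.99 for Vdr (adjusted p = 0.079). In that fit 8 genes passed in all, none of them a receptor. As these markers had higher means in the knockouts, the fit cannot tell the part of these cells from that of genotype. That part was not tested.

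**Figure D4:**
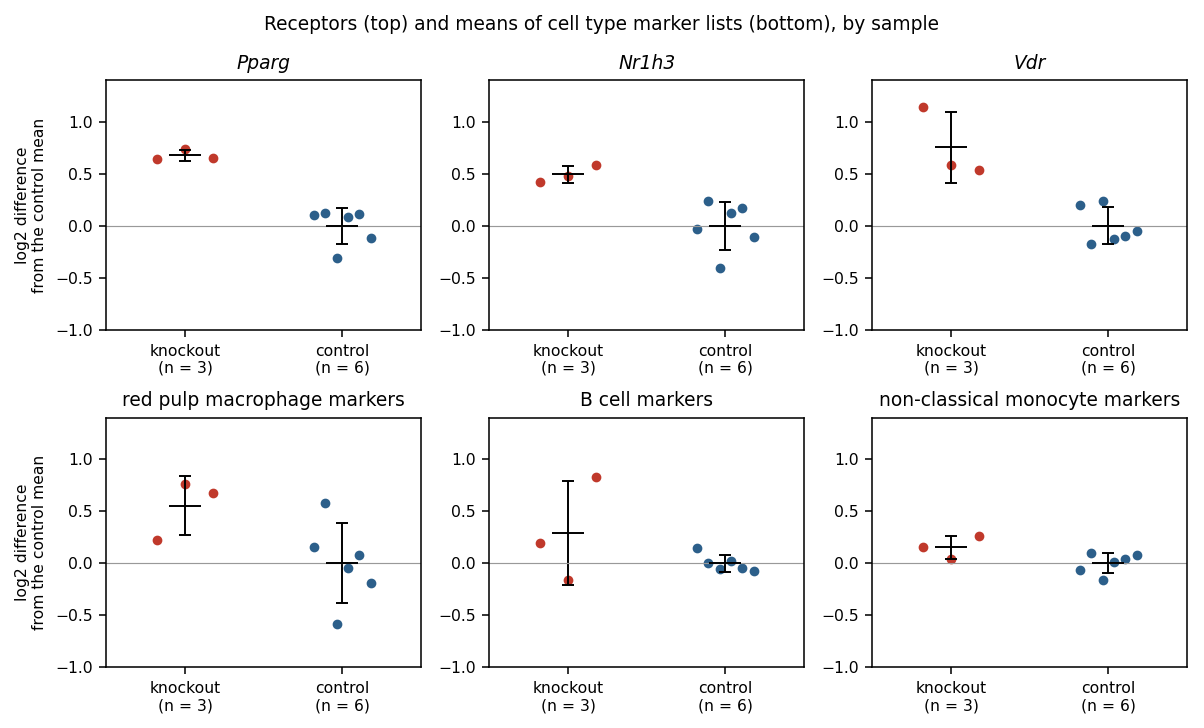
Log2 difference from the control mean (y axis) for Pparg, Nr1h3 and Vdr (top) and for the mean of 3 marker lists (bottom), with 1 point per sample in 3 knockout and 6 control samples and the mean and SD in black. The receptors do not overlap between groups, while each of the marker means does.

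B cell markers lay 0.20, -0.16 and 0.83 from the control mean in knockout replicates 1 to 3 and from -0.07 to 0.15 in controls, with 0 of 10 past the test. Without knockout replicate 3, Pparg and Vdr both passed. Non-classical monocyte markers overlapped (0.05 to 0.27 in knockout, -0.16 to 0.10 in controls). Of these, 2 of 11 rose, against 0.415% of all genes, namely Ace (1.16, adjusted p = 0.0096) and Adgre4 (0.83, adjusted p = 0.020). Classical monocyte markers overlapped too (0.07 to 0.17 in knockout, -0.14 to 0.38 in controls), with 0 of 11 past the test. Plasma cell markers did not overlap, at 0.43 to 0.76 in knockout and -0.15 to 0.24 in controls. Among them 2 of 6 rose, against 0.415% of all genes, namely Jchain (1.89, adjusted p = 0.046) and Prdm1 (0.56, adjusted p = 0.0059). Erythroid markers (0.13 to 0.31 in knockout, -0.07 to 0.05 in controls) and neutrophil markers (0.05 to 0.15 in knockout, -0.05 to 0.03 in controls) did not overlap either, with 0 of 3 and 0 of 10 past the test, and 8 of the 10 neutrophil markers were not above the chemosensory level. Plasmacytoid DC markers and T and NK cell markers overlapped, with 0 of 8 and 0 of 10 past the test. The part of these cells in the receptor results was not tested. Of the conventional DC genes, 0 of 8 in the first DC subset (cDC1) and 1 of 9 in the second (cDC2) passed. That gene was Dtx1, which acts in the Notch pathway and fell by 0.46 (adjusted p = 0.018). The cDC2 genes had 7 negative changes among 9, with a median of -0.23, and 3 of 9 (Dtx1, Clec4a4 and Cd7) lay below every control, against 4.88% of all genes. Their mean lay 0.0064, -0.10 and -0.27 from the control mean in knockout replicates 1 to 3 and -0.12 to 0.09 from it in controls, so the groups overlapped. The cDC1 genes had 7 negative changes among 8, with a median of -0.081, and none lay outside the control range. The part of these subsets in the receptor results was not tested either.

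The NR4A receptors, known as regulators of survival and tolerance in myeloid cells, all had positive changes, and none passed. Nr4a3 had 12.63, 12.53 and 12.48 in knockout replicates 1 to 3, against 12.44, 12.43, 12.32, 12.08, 12.20 and 12.11 in control replicates 1 to 6. The groups lay close without overlapping, and the change was 0.28 (SE 0.09, limma's adjusted p = 0.19). Nr4a2 had 11.99, 11.89 and 11.58 in knockout replicates, against 11.24, 11.69, 11.13, 11.45, 11.53 and 11.36 in control replicates 1 to 6. Knockout replicate 3 lay below control replicate 2, and the change was 0.42 (SE 0.13, adjusted p = 0.16) with an interval of 0.14 to 0.70. Nr4a1 overlapped throughout, with 12.84 to 13.02 in knockout and 12.64 to 13.03 in control samples and a change of 0.12 (adjusted p = 0.61).

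Among the clock receptors the changes were 0.18 for Nr1d2 (adjusted p = 0.47), 0.14 for Nr1d1 (adjusted p = 0.55) and 0.16 for Rora (adjusted p = 0.32). Rora had 6.66, 6.44 and 6.49 in knockout replicates 1 to 3, against 6.34, 6.21, 6.42, 6.42, 6.42 and 6.38 in control replicates 1 to 6. The gap between the groups was smaller than the spread of either. Of 15 other clock genes, 0 passed by limma, with a median change of 0.052 against -0.014 over all genes. The mean of the list lay 0.13 to 0.22 above the control mean in knockouts and -0.07 to 0.11 from it in controls, so the groups did not overlap. In 3 of the 15 all knockout values exceeded every control, against 2.52% of all genes. The period gene Per1, also a glucocorticoid target, changed by 0.49 (adjusted p = 0.071). The others were the transcriptional repressors Nfil3 (0.63, adjusted p = 0.085) and Bhlhe40 (0.30, adjusted p = 0.11).

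No steroid receptor passed the test. Nr3c1 had 9.37, 9.24 and 9.18 in the 3 knockouts and 9.17 to 9.38 in control samples, and its change of -0.0026 had an interval of -0.15 to 0.14. For Esr1 the change was -0.12 (adjusted p = 0.45), for Esr2 -0.00056 and for Nr3c2 -0.023. No retinoid receptor passed either. Rxra changed by 0.055 (adjusted p = 0.81), Rxrb by -0.012, Rara by 0.10 (adjusted p = 0.65), Rarg by -0.16 (adjusted p = 0.43) and Rarb by -0.026. The adjusted p was at least 0.94 for those given without one.

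Esrra, Nr2c2 and Nr5a1, orphan receptors outside the NR4A group, had small changes. Esrra had 7.83, 7.82 and 7.99 in the 3 knockouts and 7.97 to 8.09 in control samples. Knockout replicates 1 and 2 lay below every control and replicate 3 did not, and the change was -0.16 (SE 0.06, adjusted p = 0.27). Nr2c2 had 9.10, 9.05 and 9.06 in knockout replicates 1 to 3, against 9.14, 9.11, 9.11, 9.11, 9.18 and 9.17 in control replicates 1 to 6. It did not overlap, yet the change was only -0.068 (adjusted p = 0.60). Nr5a1 had 5.47, 5.32 and 5.40 in knockout replicates, against 5.69, 5.49, 5.49, 5.55, 5.56 and 5.49 in control replicates 1 to 6, a change of -0.15 (adjusted p = 0.32) at a signal near background.

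Rarb had 5.69, 5.68 and 5.61 in knockout replicates 1 to 3, against 5.49, 5.61, 5.65, 5.56, 6.16 and 5.65 in control replicates 1 to 6, and the groups overlapped. The changes of Nr2c1, Nr2f1, Nr2f6, Ppard, Esrrg and Hnf4a lay between -0.091 and 0.034. Of the 17 receptors not above the chemosensory level, none passed, and their changes ranged from -0.12 for Nr5a2 to 0.30 for Nr0b1. Of the 42 receptors that did not pass, 40 had a 95% interval within 1.5-fold in either direction, and the exceptions were Nr1h3 and Nr4a2. For the 40, a larger change in signal was outside the interval. They include the 17 receptors not above the chemosensory level. For these 17, signal near background does not bound a change in the transcript.

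Several receptors shared 1 value across arrays. In 25 of 44, at least 1 of the 36 pairs of arrays had values equal to 6 decimals, with the most, 10 pairs, in Esrrg. The source of these ties was not tested.

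Genes that act with the receptors were then counted. Of 23 coactivators and corepressors, 0 passed by limma, with a median change of 0.036, and the smallest p was that of the arginine methyltransferase Prmt1 (-0.38, adjusted p = 0.094). Of 19 genes of retinoid metabolism, 0 passed (median -0.031), with the smallest p in Lrat (0.26, adjusted p = 0.21), which was not above the chemosensory level. Of 16 genes that make or break down steroid, oxysterol, vitamin D and thyroid ligands, 0 passed (median 0.0078). Among these, Ch25h, which makes an oxysterol, changed by 0.30 (adjusted p = 0.13) at a signal not above the chemosensory level. Cyp24a1, a classical vitamin D target that degrades the hormone, had 5.28 to 5.33 in knockout and 5.25 to 5.35 in control samples, all at or below the chemosensory level.

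Target genes of the liver X receptors and PPARs rose in part, as 3 of 22 passed, all higher, against 0.415% of all genes that passed as higher, with a median change of 0.16 against -0.014 over all genes. Scd1, a fatty acid desaturase, changed by 0.87 (adjusted p = 0.046). Fabp4, a fatty acid carrier, changed by 0.47 (adjusted p = 0.046), with 4.62 to 4.91 in knockout and 4.10 to 4.44 in control samples, below the chemosensory level in both groups. Mylip, a ubiquitin ligase of the LDL receptor, changed by 0.41 (adjusted p = 0.049) with 9.40 to 9.77 in knockout and 9.07 to 9.26 in control samples. Leaving out 1 sample gave 3 without knockout replicate 3 (Mylip, Fabp4 and Hilpda, a lipid droplet gene), 1 without control replicate 6 and 0 without any other sample. With the red pulp macrophage markers as a covariate, 0 passed. The cholesterol exporter Abca1 changed by 0.59 (adjusted p = 0.096), while Abcg1 (0.13), Srebf1 (-0.21) and the lipid receptor Cd36 (-0.064) did not pass either. The list shares Cd5l and Mertk with the red pulp macrophage markers.

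Glucocorticoid receptor targets had 16 positive and 2 negative changes among 18 measured, and 1 passed as higher, against 0.415% of all genes. That was Mt1, a metallothionein, which rose by 0.96 (adjusted p = 0.028), and the related Mt2 changed by 1.46 (adjusted p = 0.055). The median change was 0.27, against -0.014 over all genes, and the mean of the list lay 0.47, 0.31 and 0.26 above the control mean in the 3 knockouts, against -0.03 to 0.09 in controls. Among the others, Fkbp5 changed by 0.32 (adjusted p = 0.62), with 8.51, 7.41 and 7.13 in knockout replicates 1 to 3 and 7.07 to 7.59 in control samples, so that knockout replicate 1 alone stood apart. The leucine zipper gene Tsc22d3 changed by 0.20 (adjusted p = 0.34). Leaving out 1 sample gave 0 when that was knockout replicate 2 or control replicate 4, 5 or 6, 3 when it was control replicate 2, 2 when it was control replicate 3 and 1 otherwise. Cd163 and Mertk stand both here and among the red pulp macrophage markers.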

How the data were processed

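Total RNA of sorted splenic DCs was measured on 9 single-channel arrays, in 3 knockout and 6 control samples grouped by the genotype label. The deposited values are log2 intensities per transcript cluster, which the authors computed by RMA according to the submitters' processing notes, a method that subtracts background, quantile-normalizes arrays and summarises oligonucleotides. The log base was judged by their range, and the RMA version and genome build were not given in the sources used here. Quantile normalization removes a shift of most genes in 1 direction. Of 41801 rows, 7329 had no value and 4 lacked 1. Probes with exactly 1 symbol in the platform annotation were kept at any signal, and the brightest (highest mean over all samples) stood for each of 22180 genes.

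Groups were compared with limma 3.58.1 under R 4.3.3 (lmFit and eBayes, two-sided tests, genotype as the only term), with Benjamini-Hochberg adjustment over all 22180 genes at 0.05. Changes are knockout minus control. On simulated data with normal noise, the fit recovered 40 of 67 genes with a true change of 0.5 and 65 of 67 with 1. A change near 0.5 can therefore be missed. The number of arrays limits the precision.

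The members, gene lists, tests and named-gene rule were chosen with earlier results of these data known. Per-sample values were given for receptors past 0.05, for those outside the control range and for the 5 with the largest control SD above the chemosensory level. Those of Nr4a1, Nr3c1 and Esrra, and the genes Abca1, Abcg1, Srebf1, Cd36, Cyp24a1, Mt2, Fkbp5, Tsc22d3, Nfil3, Bhlhe40, Clec4a4, Cd7, Spic and Cd5l, were chosen after seeing their values. Other settings tried were median centring, a trended robust eBayes, array weights, a replicate block, a minimum signal, averaging the probes of each gene, each sample left out and, added later, red pulp macrophage markers as a covariate. Promoter windows came from RefSeq (GRCm38.p6). Tables and figures used Python 3.11.15, pandas 2.3.3, numpy 2.4.6 and matplotlib 3.10.9.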

Additional observations from a re-analysis of the deposited data

Results flagged for a closer look

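In 62 groups of 6 control samples (44 receptors and 18 list means), 6 had a highest or lowest control farther from the others than Dixon's 95% critical value allows, and chance gives about 1 in 20 such groups. Rarb had 6.16 in control replicate 5, against 5.49 to 5.65 in the other controls. Nr5a1 had 5.69 in control replicate 1, against 5.49 to 5.56. Esrrg had 6.45 in control replicate 1, while the other 5 controls shared 2 distinct values near 6.22. Ppara, not above the chemosensory level, had 4.94 in control replicate 3, against 4.49 to 4.62. The mean of the glucocorticoid receptor targets lay 0.0899 above the control mean in control replicate 2, against -0.03 to -0.0017 in the other controls. The classical monocyte markers lay 0.38 above it in control replicate 1, against -0.14 to 0.0040.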

How the results depend on the processing

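Over the 44 receptors, 636 of 687 comparisons with an alternative kept direction and side of the threshold, and 38 changed sign. Only Pparg and Vdr had a call to lose, and it was lost in 13 of their comparisons. The other receptors could not lose one, so the 636 do not measure how firm the calls are. The sign changes fell on 16 receptors, whose changes were at most 0.093 in size. Of 201 genes past the threshold (92 higher), there were 125 with median centring (62 higher), 652 with array weights (311 higher), 483 with the filter (192 higher), 8 with the macrophage marker covariate (5 higher) and 33 to 332 without 1 sample (33 without knockout replicate 2, 332 without knockout replicate 1, 78 of them higher). The receptors past it numbered 0 with that covariate and 0 to 2 without 1 sample. With the 99th percentile as the chemosensory level, 17 of 44 receptors lay above it, a lower share than the 43.0% of all genes. Vdr was not among the 17. Of the liver X receptor and PPAR targets 1 passed with centring, 5 with array weights and 2 with the filter. Of the glucocorticoid targets 2 passed with a trended robust eBayes, 4 with array weights and 4 with the filter. The causes were not tested.

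The labels state no pairing by replicate number. Same-numbered samples had deviations correlated at -0.14, -0.10 and 0.047. So few samples cannot settle whether a number marks a shared batch. With the replicate block, 2 genes passed (1 higher), 0 of them receptors. In that fit Cebpb changed by -1.47 (adjusted p = 0.14), Pparg by 0.71 (adjusted p = 0.34) and Vdr by 0.66 (adjusted p = 0.41). Controls whose number no knockout shares add nothing to that comparison, which rests on replicates 1 to 3 of each group.

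Changes that turned sign were, with centring, -0.00057 for Rxrg. With array weights they were 0.0012 for Nr2f2, 0.0099 for Nr3c2, -0.023 for Rxrg and 0.0065 for Rorb. With the replicate block they were -0.023 for Nr1h4, 0.078 for Rarb, 0.013 for Rxrb and -0.057 for Rxrg. With the covariate they were 0.056 for Nr2f2, 0.0098 for Nr3c1, -0.0075 for Rxra, 0.017 for Rxrb, 0.077 for Esr2 and -0.035 for Hnf4g. Without 1 sample, changes ranged from -0.015 to 0.022 for Esr2, -0.0047 to 0.037 for Hnf4g, -0.13 to 0.0078 for Nr1i2, -0.077 to 0.0087 for Nr2f6, -0.055 to 0.038 for Nr3c1, -0.073 to 0.018 for Nr3c2, -0.036 to 0.13 for Nr6a1, -0.078 to 0.0066 for Ppard, -0.066 to 0.069 for Rarb, -0.043 to 0.028 for Rorb, -0.017 to 0.093 for Rxra, -0.058 to 0.016 for Rxrb, -0.039 to 0.062 for Rxrg and -0.14 to 0.0096 for Thrb.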
